A study of Rattus norvegicus with 4 samples.

Results

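This account covers 9 genes of the Nodal and activin signalling pathway in rat embryoid bodies at differentiation day 4: the ligand genes Nodal and Gdf3, the co-receptor genes Tdgf1 and Cfc1, the antagonist genes Cer1, Lefty1, Lefty2 and Fst, and the activin subunit gene Inhba. They were taken by gene symbol from the deposited tables, which list 32753 genes, and each symbol matched 1 row. The group was selected on RPKM values of these same libraries, with the difference between genotypes in view, so that difference is described here for the 9 genes and is not tested. The samples are embryoid bodies, the aggregates that embryonic stem cells form when they start to differentiate, from rat embryonic stem cells of strain DASD that were wild type (WT) or Kcnh2-/-, with 2 libraries for each genotype. Both genotypes were grown the same way: 2 days in hanging drops of 20 µl with CHIR9902 at 0.75 µM, PD0325901 (an inhibitor of MEK) at 0.1 µM and Y27632 (an inhibitor of ROCK) at 10 µM, 24 hours on laminin with the first 2 compounds, then 1 day in the differentiation medium called DM. The labels do not say whether the 2 libraries of a genotype came from separate cultures, nor how many Kcnh2-/- clones were used. All p-values therefore measure only the spread between these libraries, which may be technical.

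Nodal is a secreted TGF-beta family ligand that keeps the epiblast competent to form mesoderm and endoderm and patterns the early axis. It binds activin receptors together with an EGF-CFC co-receptor, either Cripto (encoded by Tdgf1) or Cryptic (Cfc1), and the receptors phosphorylate Smad2 and Smad3, which act with Smad4 and the DNA-binding factor FoxH1. Lefty1 and Lefty2 are feedback antagonists that are themselves Nodal targets, Cerberus (Cer1) is an extracellular antagonist made by anterior visceral and definitive endoderm, and follistatin (Fst) captures activin.

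Values are RPKM as deposited, read numbers scaled to transcript length and to mapped reads, and the absolute read depth is unknown. Where a genotype has a pair of values, replicate 1 comes first. Between 17610 and 17833 genes were above 0 in each library. RPKM summed over all genes to 7.95e+07 and 1.17e+07 in WT and to 1.09e+08 and 8.93e+06 in Kcnh2-/-, so both replicate 1 libraries were far above both replicate 2 libraries. Protein-coding genes held 1.28% and 6.09% of the sum in WT and 0.538% and 9.69% in Kcnh2-/-. Kcnh2, which encodes the potassium channel subunit ERG1, was at 2.61 and 1.45 RPKM for WT, and 0.108 and 0.504 for Kcnh2-/-, so it was lower in Kcnh2-/- without overlap, at low levels throughout. The Y-linked gene Eif2s3y was at 153 and 135 RPKM with WT genotype, compared with 0.0574 and 0.140 in Kcnh2-/-, so loss of Kcnh2 and a difference in Y-linked expression cannot be told apart in this design. None of the 9 genes lies on a sex chromosome. The embryoid bodies carried strong pluripotency transcripts: Pou5f1, the gene for Oct4, was at 273 RPKM in WT replicate 1 and at 1203, 1043 and 1679 in WT replicate 2 and Kcnh2-/- replicates 1 and 2. WT replicate 1 was the lowest in summed pluripotent epiblast markers (809 RPKM, against 2420 to 2590 in the other libraries) and the highest in summed definitive endoderm markers (130.0 RPKM, against 2.80 to 23.7). The epiblast sum was led by Pou5f1 and the DNA methyltransferase gene Dnmt3b. The pluripotency factor gene Nanog was low in both replicate 1 libraries (2.50 RPKM in WT, 8.7 in Kcnh2-/-). WT replicate 1 stands apart in most results below, and its values are therefore printed separately.

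The promoter sequences of 5 of the 9 genes were in the RefSeq table for the GRCr8 assembly, with Tdgf1 under its current name Cripto. Those of Nodal, Tdgf1, Cfc1 and Cer1 are shown because the first 2 genes lay on the opposite side of the genotype difference from the last 2. Each run holds the 250 bases before the annotated start, 5′ to 3′ on the strand of the gene: Nodal at chr20:29911008-29911257 on the plus strand, Tdgf1 at chr8:119808715-119808964 on the minus strand, Cfc1 at chr9:44240258-44240507 on the plus strand and Cer1 at chr5:102355721-102355970 on the minus strand. Capitals mark matches to the letters CAGAC, the core of a Smad site, or AATNCACA, a short form of the FoxH1 site, on either strand.
Nodal: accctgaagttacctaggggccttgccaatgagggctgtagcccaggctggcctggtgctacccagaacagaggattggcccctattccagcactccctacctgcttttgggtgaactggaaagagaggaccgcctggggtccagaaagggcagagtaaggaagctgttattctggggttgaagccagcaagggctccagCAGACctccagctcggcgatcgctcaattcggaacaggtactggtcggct
Tdgf1: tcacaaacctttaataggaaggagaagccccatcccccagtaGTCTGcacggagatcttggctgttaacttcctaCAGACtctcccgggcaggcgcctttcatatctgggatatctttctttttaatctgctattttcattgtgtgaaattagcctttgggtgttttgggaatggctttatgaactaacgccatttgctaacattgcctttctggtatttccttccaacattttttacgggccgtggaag
Cfc1: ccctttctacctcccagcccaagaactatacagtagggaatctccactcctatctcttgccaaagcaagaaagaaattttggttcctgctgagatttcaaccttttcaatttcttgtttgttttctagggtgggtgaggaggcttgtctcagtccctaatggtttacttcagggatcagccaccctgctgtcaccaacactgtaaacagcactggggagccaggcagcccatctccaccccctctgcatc
Cer1: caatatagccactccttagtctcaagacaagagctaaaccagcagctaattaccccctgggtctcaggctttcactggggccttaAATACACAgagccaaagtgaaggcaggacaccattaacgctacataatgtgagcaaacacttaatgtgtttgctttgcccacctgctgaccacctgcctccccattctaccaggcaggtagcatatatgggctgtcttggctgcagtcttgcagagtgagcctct
The Nodal promoter held CAGAC once, 50 bases before the start, and the Tdgf1 promoter held it at 208 bases (reverse strand) and 175 bases before the start. The Cer1 promoter held AATACACA at 165 bases before the start and no CAGAC, and the Cfc1 promoter held none of these letters. Over 33469 RefSeq promoter windows of 300 bases, 50.1% held CAGAC at least once, 16.1% held 2 or more copies and 3.78% held AATNCACA. The full FoxH1 letters AATCCACA, which are contained in AATNCACA, were in 0.911% of the windows and in none of the 5. A match in these letters is a description of the sequence and does not show that a factor binds there.

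Nodal, Tdgf1, Gdf3 and both Lefty genes were higher in Kcnh2-/- than in WT when libraries of the same replicate number were compared, while Cfc1 and Cer1 were lower. The antagonists therefore did not lie together: the Lefty genes stood with the ligand, and Cer1 with the co-receptor Cfc1. Fst, above 1 RPKM in WT replicate 1 alone, was also lower within both replicate numbers, by -2.15 and -0.12 in log2(RPKM + 1). Without WT replicate 1 and without pairing, the difference of Lefty1 turned to -0.29 on that scale. In bulk RNA, fewer cells of a type and less RNA per cell cannot be told apart. Of the 9 genes, 7 reached 1 RPKM in at least 2 libraries and entered the fit over all genes, while Fst and Inhba did not. Comparing within each replicate number, 5 of the 7 lay above WT both times and 2 lay below both times, beside 30.8% and 28.1% of the 12355 genes tested. Without that pairing, which the labels do not state, 2 of the 7 were higher and 1 was lower with groups that did not overlap, beside 16.7% and 15.3% of genes tested. Limma called 0 of the 7, beside 0.113% of genes tested, and nothing is read from these counts because the genotype contrast entered the choice of genes.

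**Figure D1:**
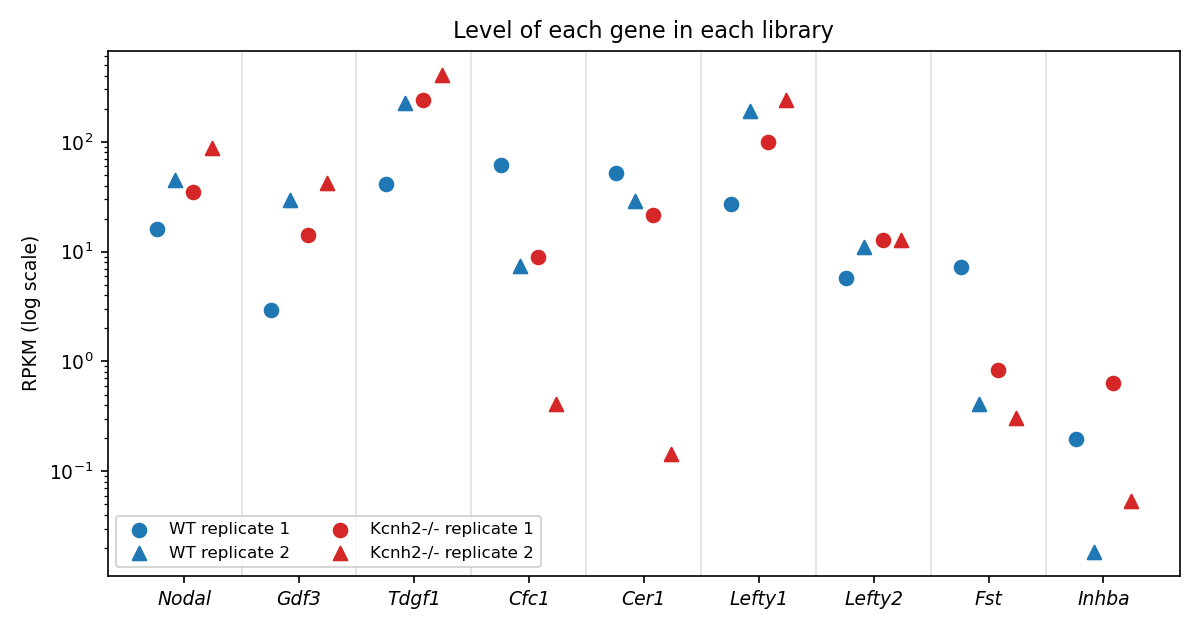
RPKM of each of the 9 genes in each of the 4 libraries on a log axis, with WT in blue, Kcnh2-/- in red, circles for replicate 1 and triangles for replicate 2. WT replicate 1 is the lowest library for Nodal, Gdf3, Tdgf1, Lefty1 and Lefty2 and the highest for Cfc1, Cer1 and Fst, and Cer1 is at 0.144 RPKM in Kcnh2-/- replicate 2.

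Among the ligands, Nodal (rn6 chromosome 20, 31035728 to 31044096) was at 16.1 and 44.9 RPKM in the WT pair, against 35.0 and 87.2 in the Kcnh2-/- pair. Both replicate numbers gave a higher value in Kcnh2-/-, by 2.18-fold and 1.94-fold, but the groups overlapped because WT replicate 2 lay above Kcnh2-/- replicate 1. The mean over 2 libraries was 30.5 ± 20.4 RPKM (SD) for WT, against 61.1 ± 37.0 for Kcnh2-/-. The difference in log2(RPKM + 1), the scale of all log2 differences here, was 1.01 ± 0.68 (SE), and it came to 0.30 with WT replicate 1 left out and 0.36 with Kcnh2-/- replicate 2 left out. The spread between replicates of 1 genotype was thus larger than the difference: replicate 2 exceeded replicate 1 by a log2 of 1.43 (2.79-fold) in WT and 1.29 (2.49-fold) in Kcnh2-/-.

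Gdf3, a Nodal-related ligand of the epiblast, was at 2.95 and 29.3 RPKM for WT, and 14.3 and 42.2 for Kcnh2-/-. WT replicate 1 was 9.94-fold below WT replicate 2, and the groups overlapped. The log2 difference between genotypes was 1.23 ± 1.12 (SE), with 1.95 within replicate 1 and 0.51 within replicate 2, and it turned to -0.24 without WT replicate 1. In the files Gdf3 shares its locus (rn6 chromosome 4, 155408232 to 155631856) with Nanog, Dppa3 and Slc2a3, and the sources used here do not say how reads were divided among them. Its locus neighbour Dppa3, a gene of the germ line and naive pluripotency, was at 26.1 and 191 RPKM with WT genotype, compared with 117 and 393 in Kcnh2-/-, in the same order of libraries. The pluripotency factor gene Nanog was at 2.50 and 72.6 against 8.70 and 74.1 RPKM. The glucose transporter gene Slc2a3 was at 896 and 429 against 373 and 458 RPKM, with WT replicate 1 the highest rather than the lowest.

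The 2 co-receptor genes lay on opposite sides. Tdgf1 (rn6 chromosome 8, 119215494 to 119219232) was at 41.3 and 226 RPKM in the WT pair, against 240.3 and 409 in the Kcnh2-/- pair. Both Kcnh2-/- libraries were above both WT libraries, although WT replicate 2 and Kcnh2-/- replicate 1 were close, and WT replicate 1 lay far below. The log2 difference was 1.68 ± 0.88 (SE), with 2.51 within replicate 1 and 0.85 within replicate 2, and 0.47 without WT replicate 1. Tdgf1 was above 95.2% to 96.3% of tested genes in 3 libraries, and above 79.8% in WT replicate 1.

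Cfc1 was at 61.1 and 7.35 RPKM for WT, and 8.88 and 0.405 for Kcnh2-/-. It was lower in Kcnh2-/- by 6.88-fold within replicate 1 and 18.1-fold within replicate 2, yet the groups overlapped, since Kcnh2-/- replicate 1 lay above WT replicate 2. The log2 difference was -2.61 ± 1.37 (SE), with -2.65 and -2.57 within replicates 1 and 2. It came to -1.16 with WT replicate 1 left out and -1.21 with Kcnh2-/- replicate 2 left out. Between replicates of 1 genotype the log2 difference was of the same size, -2.90 in WT and -2.81 in Kcnh2-/-. In the files Cfc1 (rn6 chromosome 9, 41045362 to 41052024) shares its locus with the contig-named gene AABR07067351.1, which was listed at 187108 RPKM in WT replicate 1 and at 0 in the other 3 libraries. Whether that entry affects the value of Cfc1 in WT replicate 1 was not tested.

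Cer1, the gene of the secreted antagonist Cerberus, was lower in Kcnh2-/- by very different amounts in the 2 replicate numbers. The gene (rn6 chromosome 5, 101003022 to 101006375) was at 52.2 and 28.8 RPKM with WT genotype, compared with 21.4 and 0.144 in Kcnh2-/-, so both Kcnh2-/- libraries were below both WT libraries. Within replicate 1 the Kcnh2-/- library was 2.44-fold lower, and within replicate 2 it was 200-fold lower. The log2 difference was -2.98 ± 1.47 (SE), with -1.25 and -4.71 within replicates 1 and 2, and -0.83 without Kcnh2-/- replicate 2. The size of the difference thus rests largely on that 1 library, while its direction was the same without any 1 of the 4 libraries. At 0.144 RPKM Cer1 was above only 1.2% of tested genes, against 66.4% to 83.9% in the other libraries.

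Lefty1 and Lefty2, near neighbours on rn6 chromosome 13 (99214388 to 99217786 and 99173483 to 99178037), followed Nodal rather than Cer1. Lefty1 was at 27.4 and 190.0 RPKM in the WT pair, against 100.4 and 239.6 in the Kcnh2-/- pair. The groups overlapped, and replicate 2 was above replicate 1 in both genotypes. Its log2 difference between genotypes was 1.08 ± 1.03 (SE), with 1.84 within replicate 1 and 0.33 within replicate 2, and it turned to -0.29 without WT replicate 1.

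Lefty2 was at 5.80 and 10.9 RPKM for WT, and 12.8 and 12.6 for Kcnh2-/-. Both Kcnh2-/- libraries were above both WT libraries, the gap to WT replicate 2 being small. Its log2 difference was 0.61 ± 0.38 (SE), with 1.02 and 0.19 within replicates, and 0.20 without WT replicate 1. The Lefty genes are paralogs, and reads that fit both could have been divided between them. The 314 other protein-coding genes tested on chromosome 13 had a median log2 difference of -0.05 within replicate 1 and -0.35 within replicate 2, against -0.01 and 0.02 over all 10853 protein-coding genes tested. The 50 within 5 Mb of the Lefty genes gave -0.07 and -0.34. After each library was centred on the median of each chromosome, the log2 difference was 1.44 for Lefty1 and 0.97 for Lefty2. The chromosomes of the other genes of this group had medians between -0.11 and 0.15 within either replicate number.

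Fst and Inhba were low. Fst, the follistatin gene, was at 7.20 and 0.413 RPKM with WT genotype, compared with 0.842 and 0.304 in Kcnh2-/-, so only WT replicate 1 stood above 1 RPKM. Inhba, whose product forms activin A, was at 0.199 and 0.0185 RPKM in the WT pair, against 0.642 and 0.0539 in the Kcnh2-/- pair, and replicate 1 was above replicate 2 in both genotypes. Subunit genes of other activins and of inhibins were low as well. Inhbb did not exceed 0.122 RPKM in any library, and Inha was at 1.35 RPKM in WT replicate 1 and below 1 RPKM in the other libraries. Transcripts of activin subunits were thus far below those of Nodal at this stage on the RPKM scale, which corrects for transcript length.

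**Figure D2:**
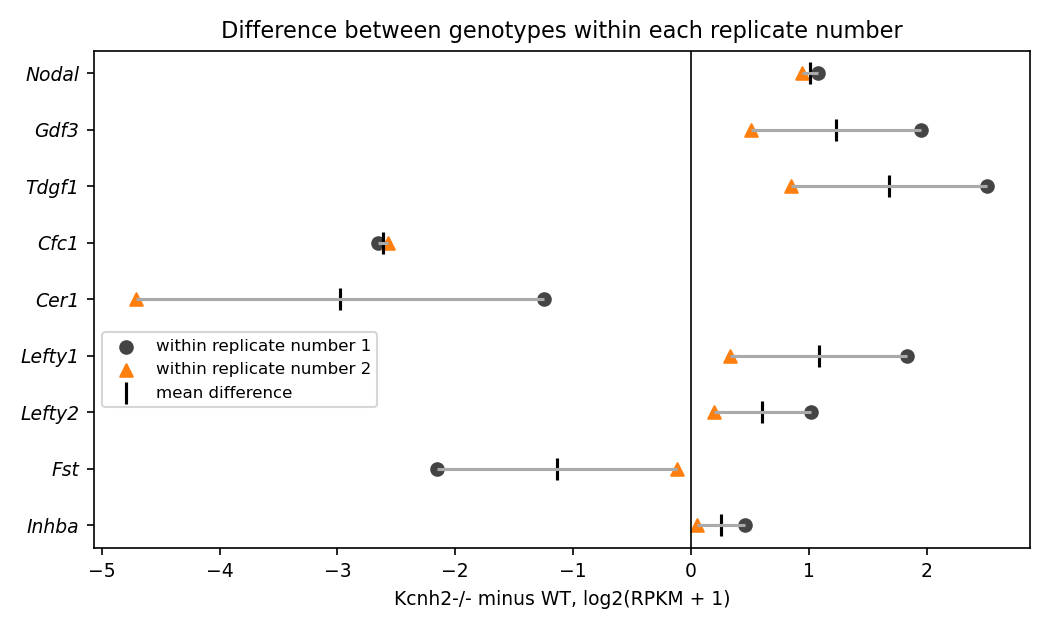
Difference between Kcnh2-/- and WT in log2(RPKM + 1) for each of the 9 genes, within replicate number 1 (circles) and 2 (triangles), with the mean as a vertical tick. Nodal and Cfc1 give nearly the same difference in both replicate numbers (1.08 and 0.94, and -2.65 and -2.57), while Cer1 differs most between them (-1.25 and -4.71).

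The order of the genes by level separated WT replicate 1 from the other 3 libraries. In WT replicate 1 the highest were Cfc1, Cer1 and Tdgf1, in that order. In each of the other 3 libraries the order began Tdgf1, Lefty1, Nodal, and Cfc1 was at place 6 or 7. In the WT group every neighbouring pair in the order of mean levels overlapped except Fst and Inhba. In Kcnh2-/- the levels of Tdgf1, Lefty1 and Nodal did not overlap with the next lower gene, except that Nodal overlapped with Gdf3, and Gdf3 did not overlap with Lefty2.

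The balance of ligand and co-receptors against antagonists overlapped between the genotypes. The mean log2(RPKM + 1) of Nodal, Tdgf1, Cfc1 and Gdf3 exceeded that of Cer1, Lefty1, Lefty2 and Fst by 0.27 and 1.19 in WT and by 1.13 and 2.2 in Kcnh2-/-. WT replicate 2 and Kcnh2-/- replicate 1 gave nearly the same balance, WT replicate 1 the lowest and Kcnh2-/- replicate 2 the highest. The difference between genotypes was 0.93, and it came to 0.47 with WT replicate 1 left out and 0.40 with Kcnh2-/- replicate 2 left out. The antagonist mean was 4.09 and 4.14 in WT and 3.95 and 3.06 in Kcnh2-/-, while the ligand and co-receptor side was at 4.36 and 5.33 in WT and 5.08 and 5.27 in Kcnh2-/-. Each mean joins genes that lie on opposite sides, Tdgf1 with Cfc1 and the Lefty genes with Cer1.

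Ratios within a library show which antagonist and which co-receptor prevailed. Cer1 stood at 3.25 times the level of Nodal in WT replicate 1, at 0.643 in WT replicate 2, at 0.611 in Kcnh2-/- replicate 1 and at 0.00165 in Kcnh2-/- replicate 2. Lefty1 stood at 1.70, 4.24, 2.87 and 2.75 times Nodal in the same order, a much narrower range. The ratio of Tdgf1 to Cfc1 was 0.675 in WT replicate 1, 30.8 in WT replicate 2, 27.1 in Kcnh2-/- replicate 1 and 1010 in Kcnh2-/- replicate 2. Cfc1 transcript therefore exceeded Tdgf1 only in WT replicate 1.

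Most of these genes differed between replicate numbers about as much as between genotypes. Of the 7 genes in the fit, 4 were higher in replicate 2 than in replicate 1 within both genotypes (Nodal, Gdf3, Tdgf1 and Lefty1) and 2 were lower (Cfc1 and Cer1), beside 39.5% and 28.1% of genes tested. Lefty2 differed by 0.81 in WT and -0.02 in Kcnh2-/-. The mean difference between replicate numbers was larger than that between genotypes for 4 of the 7 genes, and for 58.8% of all genes tested. The labels name no batch, and what set the replicate numbers apart is not stated in them. For Cer1 the replicate difference was -0.84 in WT and -4.29 in Kcnh2-/-, the least alike of these genes.

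**Figure D3:**
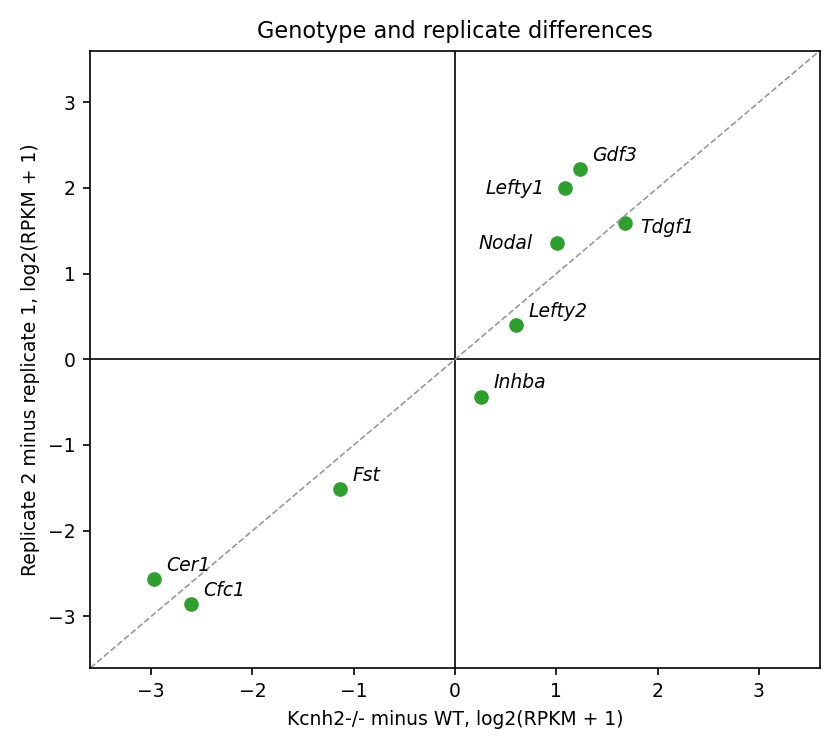
Each of the 9 genes by its log2(RPKM + 1) difference between genotypes (horizontal axis) and between replicate numbers, averaged over genotypes (vertical axis), with a dashed line of equality. Cer1 and Cfc1 lie low on both axes (-2.98 and -2.56, and -2.61 and -2.86), and Tdgf1, Gdf3, Lefty1 and Nodal lie high on both, with both axes made from the same 4 libraries.

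Summed markers of several cell types moved with these genes across libraries, though not every marker of a list did, and their part in the results was not tested. Definitive endoderm markers, all 6 of which were in the files, summed to 130.0 and 23.7 RPKM for WT, and 23.1 and 2.80 for Kcnh2-/-, with every marker at 1 RPKM or more in WT replicate 1 and 1 of 6 in Kcnh2-/- replicate 2. WT replicate 1 was thus the highest and Kcnh2-/- replicate 2 the lowest, as for Cfc1, Cer1 and Fst. Cxcr4, a chemokine receptor gene of endoderm, was at 58.1 and 9.99 RPKM with WT genotype, compared with 6.71 and 0.726 in Kcnh2-/-, and Foxa2, a pioneer factor gene of endoderm, at 38.3 and 6.18 against 8.37 and 0.231. Visceral endoderm markers summed to 42.5 and 4.47 RPKM in the WT pair, against 11.5 and 2.11 in the Kcnh2-/- pair, with the transport protein genes Ttr and Rbp4 the highest on average. Ttr made up most of the sum in WT replicate 1, at 30.9 RPKM. Rbp4 was highest in Kcnh2-/- replicate 1, at 4.66 RPKM against 2.12 in WT replicate 1, and Amn was highest in WT replicate 2, at 1.36 RPKM. The listed markers Afp, Apob, Hnf4a, Sox7, Cubn and Apoa1 stayed under 1 RPKM in all 4 libraries. For anterior visceral endoderm, a source of Cer1 and Lefty1 in the embryo, the other 7 markers summed to 78.9 and 23.5 RPKM for WT, and 24.0 and 7.89 for Kcnh2-/-, with Foxa2 and Hhex the highest. Hhex was at 8.90 and 6.67 against 5.47 and 6.65 RPKM, about level in the last 3 libraries. The list had 1 of 7 markers at 1 RPKM or more in Kcnh2-/- replicate 2, namely Hhex, against 6 of 7 in each other library. Foxa2, Dkk1, Gsc, Lhx1 and Hesx1 were all lowest in Kcnh2-/- replicate 2, as Cer1 was. Otx2 was listed at 0 in every library, which in such files can be a failed estimate.

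Pluripotent epiblast markers, 9 of 10 in the files, were the only list with WT replicate 1 lowest in sum. They summed to 809 and 2480 RPKM with WT genotype, compared with 2420 and 2590 in Kcnh2-/-, led by Pou5f1 and the DNA methyltransferase gene Dnmt3b. Not every marker followed the sum. Sox2 was lowest in Kcnh2-/- replicate 1, at 33.9 and 47.8 against 18.1 and 43.8 RPKM. Nanog and Esrrb were low in both replicate 1 libraries, Esrrb at 1.58 and 20.5 against 4.47 and 27.9 RPKM. Primitive streak and mesoderm markers were low, at sums of 35.6 and 34.4 RPKM in the WT pair, against 25.6 and 15.5 in the Kcnh2-/- pair, with Fgf8 and Eomes the highest on average and Mixl1, Mesp2 and Tbx6 under 1 RPKM throughout. Trophoblast markers summed to 1890 and 430.0 against 799 and 330.0 RPKM, nearly all from the keratin genes Krt8 and Krt18, which other epithelia also express. The sum followed Krt8, at 1567 and 175 against 531 and 53.1 RPKM, while Krt18 varied less, at 314 and 230 against 253 and 255. Tfap2c and Elf5 were instead lowest in WT replicate 1, Tfap2c at 2.26 and 20.9 against 13.9 and 20.4 RPKM. Neuroectoderm markers summed to at most 8.25 RPKM, with Nes the highest and Pax6 next. Fibroblast markers, which would mark feeder or stromal cells, summed to 19.2 and 1.47 RPKM for WT, and 4.83 and 0.445 for Kcnh2-/-, with Col3a1 and Postn the highest on average, while Lum, Thy1 and Pdgfrb stayed under 1 RPKM in all libraries. Fst, at 7.20 RPKM in WT replicate 1 alone, was highest in the library where the sum of these fibroblast markers, like those of the endoderm markers, was highest. Dcn and Col1a1 of the fibroblast list went the other way, at 0.741 and 0.560 RPKM there against 1.42 and 1.40 in Kcnh2-/- replicate 1.

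**Figure D4:**
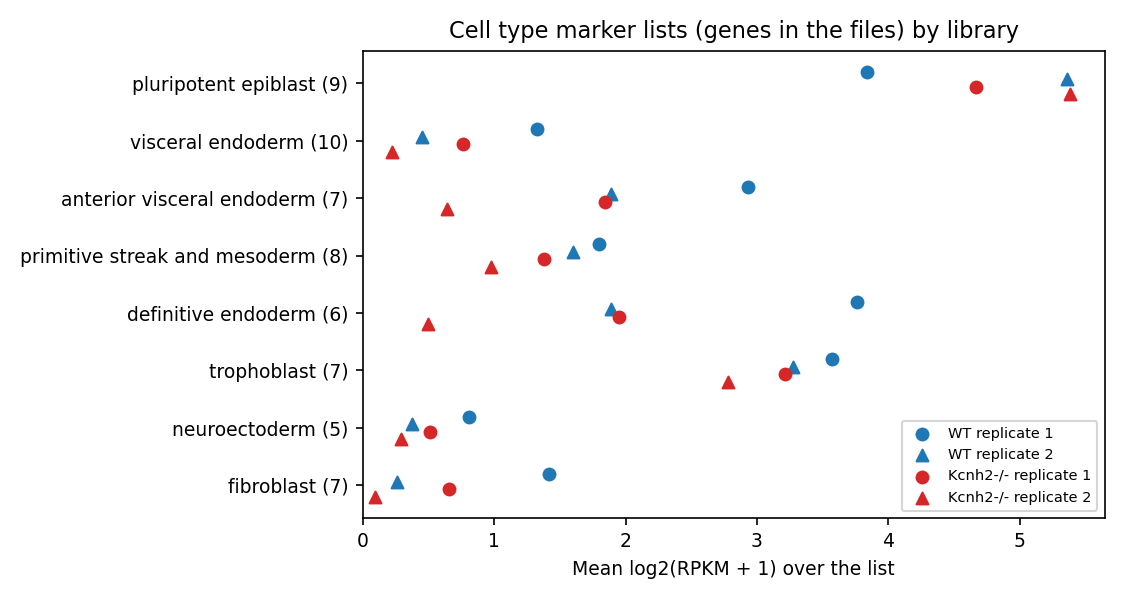
Mean log2(RPKM + 1) of each cell type marker list in each library, with the number of its genes in the files in brackets, WT in blue, Kcnh2-/- in red, circles for replicate 1 and triangles for replicate 2. Pluripotent epiblast markers are lowest in WT replicate 1 (3.84) and every other list is highest there, while Kcnh2-/- replicate 2 is lowest in every list but the pluripotent one.

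Genes with the profile most like that of Nodal and of Cer1 were sought among 7918 protein-coding genes with a mean of 5 RPKM or more, by the root-mean-square distance between profiles of log2(RPKM + 1) over the 4 libraries, each centred on its own mean. The nearest to Nodal were Pask (distance 0.121), Cenpm (0.127) and Scarb1 (0.130). Pask, a kinase gene, was at 9.17 and 21.2 RPKM with WT genotype, compared with 16.8 and 43.0 in Kcnh2-/-. The nearest to Cer1 were Foxa2 (0.819), the growth factor gene Fgf10 (0.937) and Cxcr4 (0.944), all at larger distances than those of Nodal. Foxa2 differed 6.19-fold between the WT libraries, where Cer1 differed 1.81-fold. Fgf10 was at 21.3 and 5.78 RPKM in the WT pair, against 4.36 and 0.308 in the Kcnh2-/- pair.

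The other genes of the pathway were compared between genotypes as a list, which was chosen with earlier results of these data known. Its counts, p-values and calls are therefore not independent support for a difference. The list held 47 ligands, processing enzymes, receptors, Smads, antagonists and targets beside the 9 genes, of which 37 were tested. Limma called 0 of the 37 (adjusted p of 0.980 or more), 1 was at an unadjusted p under 0.05, and over all 12355 genes tested limma called 4 higher and 10 lower, with 418 at an unadjusted p under 0.05. With a replicate block and protein-coding genes alone, limma called 1 of the 37, Foxa2, as lower. In simulated data both genotypes were given the same difference between replicate numbers, and every gene was given noise of the same size. There the fit without the block called none of the changed genes. In the real data deviations of same-numbered libraries correlated at 0.381 over all genes tested and at 0.583 over protein-coding genes. The simulated outcome may therefore not carry over. An absence of calls still does not show an absence of differences. Within both replicate numbers 20 of the 37 lay below WT in Kcnh2-/- and 6 above, beside 28.1% and 30.8% of all genes tested. Without overlap 11 lay below and 2 above, beside 15.3% and 16.7% of all genes tested. The median log2 difference was -0.31, against 0.005 over all genes tested.

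The 9 target genes tested had a median of -1.11, with -0.89 within replicate 1 and -1.58 within replicate 2. It came to -0.63 with WT replicate 1 left out and -0.43 with Kcnh2-/- replicate 2 left out, where the receptor genes stood at -0.46. Most of these genes also mark the primitive streak or endoderm, so they overlap with the marker lists above. Lhx1, a homeobox gene of the streak and anterior endoderm, was at 6.11 and 2.74 RPKM in WT, at 1.67 in Kcnh2-/- replicate 1 and listed at 0 in Kcnh2-/- replicate 2. This is a log2 difference of -1.66 ± 0.65 (SE), with a limma adjusted p of 0.980. The growth factor gene Fgf8 was at 9.06 and 19.3 RPKM for WT, and 7.87 and 3.94 for Kcnh2-/- (-1.11 ± 0.52, limma adjusted p = 0.980). For both genes the Kcnh2-/- libraries were below the WT libraries. Dnmt3b, the most abundant gene of the list, was at 430.1 and 1016 RPKM with WT genotype, compared with 1174 and 618 in Kcnh2-/-, with no common direction. Within both replicate numbers 6 of the 9 target genes were lower in Kcnh2-/- and 1 was higher, beside 28.1% and 30.8% of genes tested. Without overlap 3 were lower and 1 was higher, beside 15.3% and 16.7% of genes tested. The higher gene was Eomes both times, with WT libraries of 8.70 and 9.05 RPKM below Kcnh2-/- libraries of 11.5 and 9.79. Its log2 difference was small, 0.23 ± 0.28 (SE, limma adjusted p = 0.980).

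The 5 receptor genes tested had a median of -0.39. Of these, 4 were lower in Kcnh2-/- within both replicate numbers (28.1% of all genes tested) and 3 without overlap (15.3% of all genes tested). Acvr2b, whose product is a receptor that binds Nodal and activin, was at 10.1 and 20.1 RPKM in the WT pair, against 6.67 and 8.03 in the Kcnh2-/- pair (-0.88 ± 0.42, limma adjusted p = 0.980). Tgfbr1 was at 20.6 and 14.4 against 13.8 and 16.2 RPKM, and Tgfbr2 at 12.9 and 5.13 against 5.53 and 4.35 RPKM. These 2 encode receptors of TGF-beta, and neither separated the genotypes. The other receptor genes without overlap were Acvr1b and Acvr2a. Acvr1b was at 9.37 and 11.9 against 8.85 and 8.99 RPKM, and Acvr2a at 17.3 and 12.5 against 10.4 and 11.7 RPKM. The gap between the groups was small for both. The 10 genes of Smads and nuclear partners had a median of -0.23. Smad3 was at 15.0 and 3.85 RPKM for WT, and 4.03 and 2.10 for Kcnh2-/- (-1.16 ± 0.69, limma adjusted p = 0.980), again with WT replicate 1 highest. Ski, which encodes a repressor of Smad complexes, was at 15.5 and 27.7 against 12.2 and 15.1 RPKM, both Kcnh2-/- libraries being lower. The homeobox repressor gene Tgif1, the most abundant of that group, was at 42.5 and 52.2 against 29.9 and 60.5 RPKM.

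The 5 other ligand and processing genes tested had a median of -0.35. Of these, 2 were lower and 1 was higher within both replicate numbers, beside 28.1% and 30.8% of genes tested. Tgfb1 was the 1 gene at an unadjusted p under 0.05, at 1.42 and 1.40 RPKM with WT genotype, compared with 0.275 and 0.0880 in Kcnh2-/- (-1.03 ± 0.37, limma adjusted p = 0.980), a low level in all libraries. Furin, which encodes a convertase that cleaves the Nodal precursor, was at 28.1 and 19.4 RPKM in the WT pair, against 21.1 and 13.7 in the Kcnh2-/- pair, with overlapping groups. The 8 feedback and other antagonist genes tested had a median of 0.15, which came to -0.22 with WT replicate 1 left out and -0.15 with Kcnh2-/- replicate 2 left out. Fstl1, a follistatin-like gene, was at 73.4 and 45.4 against 83.5 and 78.1 RPKM, both Kcnh2-/- libraries being higher. Chrd, which encodes the BMP antagonist chordin, was at 3.47 and 2.81 against 2.12 and 0.683 RPKM, both being lower.

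**Figure D5:**
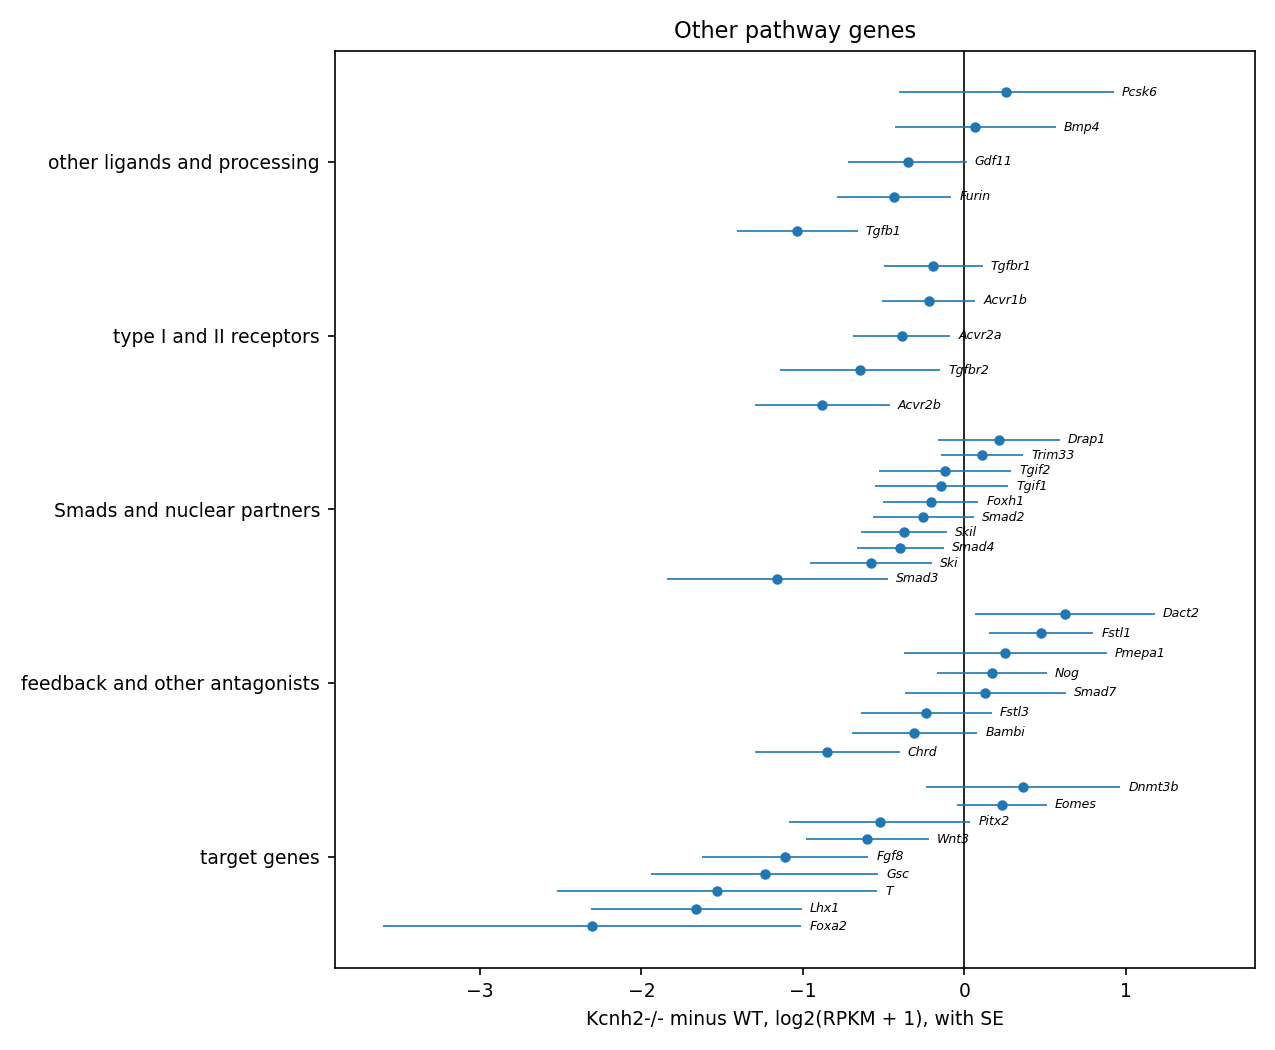
Difference between Kcnh2-/- and WT in log2(RPKM + 1) for the 37 other pathway genes tested, by group, with bars for the SE from limma. Target genes reach furthest to the left, with Foxa2 at -2.31 and Lhx1 at -1.66, and no gene passed the threshold without a replicate block, while Foxa2 passed it with the block and protein-coding genes alone.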

How the data were processed

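Per the labels, total RNA without ribosomal RNA was sequenced from TruSeq libraries that mark the strand, and the submitters' processing notes name TopHat2 2.0.13, Cufflinks 2.2.1 and the rn6 genome. The deposited values are RPKM per gene, made by the authors, 1 table per library, per the file headers; the annotation and any filters are not given in the sources used here. Differences between genotypes were fitted with limma 3.58.1 (R 4.3.3, two-sided, with a mean-variance trend) on log2(RPKM + 1) for 12355 genes that reached 1 RPKM in 2 or more of the 4 libraries, and p-values were adjusted by Benjamini-Hochberg over all of them (threshold 0.05). An exact permutation test of 2 libraries against 2 cannot go below p = 0.333, so none is reported. Log2 differences on this scale understate changes of low genes. Protein-coding genes were recognised through the symbols and synonyms of RefSeq (GRCr8, used for names, biotypes and promoter sequences only), which held 19343 of the 32753 symbols.

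The fit was tested on simulated data that gave both genotypes the same difference between replicate numbers, taken from the WT libraries, a setting that favours the block. It returned the simulated log2 changes without bias, but without the replicate block it called none of the changed genes, and with the block it called most of them. The 9 genes, the pathway list, the marker lists and the alternatives were chosen with earlier results of these data known. Named from each pathway group were the 2 genes of smallest limma p and the most abundant, and from each marker list the 2 most abundant. Other genes named with values (Inhbb, Inha, the locus neighbours, all other marker genes, and those among the closing observations) were chosen after their values were seen. So were Eomes where it is named among the target genes, and Acvr1b and Acvr2a among the receptor genes. Zfp42, Sox1 and Col1a2 were not matched by symbol, and Evx1 matched 2 rows and was left out. Alternatives covered the pseudocount (0.1 and, added later, 0.01), the filter, the scaling, the variance trend, the set of genes, a replicate block, chromosome centring and each library left out. Python 3.11.15 was used for the other calculations and the plots.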

Additional observations from a re-analysis of the deposited data

How the results depend on the processing

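Limma called 4 genes higher and 10 lower in Kcnh2-/-. The number called higher was 7 with a pseudocount of 0.1 or 0.01, 0 with no filter, 1 with median-of-ratios scaling (10 lower), 8 with quantile normalization (11 lower), and 0 with no variance trend, with protein-coding genes alone or after chromosome centring. The number called lower was 1 with no filter, 3 with no variance trend or with protein-coding genes alone, and 0 after chromosome centring. Leaving out 1 library gave 0 higher without either WT library, 9 without either Kcnh2-/- library, and 3 (without Kcnh2-/- replicate 1) to 10 lower. The cause was not tested.

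With a replicate block limma called 14 higher and 14 lower, and with the replicate block and protein-coding genes alone 57 and 25. The latter included Cfc1, 1 of the 7 genes described, and Foxa2, 1 of the 37 other pathway genes. No other setting called any of the 7 or of the 37. Nothing is read from the call of Cfc1, because the genotype contrast entered the choice of that gene. The pathway list, which holds Foxa2, was also chosen with earlier results of these data known, so that call is not independent support. The block also uses a pairing that the labels do not state. What same-numbered libraries share is not stated in the labels. Their deviations from the group means correlated at 0.381 over 12355 genes (0.583 over 10853 protein-coding genes). With 2 libraries in each genotype the deviations of replicate 2 mirror those of replicate 1, so each correlation rests on 1 independent pair.

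Under 15 alternatives for the 7 fitted genes, 2 values changed sign, Gdf3 (-0.24) and Lefty1 (-0.29) without WT replicate 1. Fst and Inhba had 1 alternative, no filter. The filter, trend, gene set and block cannot alter a log2 difference, so only the other settings bear on its size. Of 191 values of 13 named pathway genes, 5 changed sign. Over the 4 libraries left out in turn, Tgfbr1 ran from -0.434 to 0.052 (without WT replicate 1), Tgif1 from -0.638 to 0.354 (without Kcnh2-/- replicate 1, and 0.003 without WT replicate 2) and Dnmt3b from -0.254 (without WT replicate 1, and -0.097 without Kcnh2-/- replicate 1) to 0.984. The log2 difference likewise ran from 0.30 to 1.72 for Nodal, -0.24 to 2.70 for Gdf3, 0.47 to 2.90 for Tdgf1, -4.06 to -1.16 for Cfc1, -5.12 to -0.83 for Cer1, -0.29 to 2.46 for Lefty1 and 0.20 to 1.01 for Lefty2. The balance of ligand and co-receptors over antagonists ran from 0.40 to 1.47. The absolute difference was smaller for all 7 fitted genes without WT replicate 1 and for 6 of 7 without Kcnh2-/- replicate 2, Lefty2 being the exception. Absolute depth is unknown, so levels under 1 RPKM carry an unknown counting error.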

Other observations

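Pcsk6 and Smad7 differed more by replicate number than by genotype, and Dact2 stood apart in 1 library. These genes were chosen after their values were seen. Pcsk6, which encodes a convertase that can activate Nodal, was at 6.59 and 19.2 RPKM for WT, and 8.80 and 21.5 for Kcnh2-/-. Replicate 2 exceeded replicate 1 by a log2 of 1.41 in WT and 1.20 in Kcnh2-/-, while the difference between genotypes was 0.26 ± 0.67 (SE, limma adjusted p = 0.982). Smad7, an inhibitory Smad induced by the pathway, had the same order, at 10.6 and 20.4 against 11.4 and 23.1 RPKM, with replicate differences of 0.88 and 0.96 and a genotype difference of 0.13 ± 0.50 (limma adjusted p = 0.985). Dact2, whose product promotes breakdown of Nodal receptors, was at 13.3 RPKM in WT replicate 1 and at 39.3, 32.1 and 40.2 in WT replicate 2 and Kcnh2-/- replicates 1 and 2, so WT replicate 1 was the lowest. Its genotype difference was 0.62 ± 0.56 (limma adjusted p = 0.980), with 1.21 within replicate 1 and 0.03 within replicate 2. What these libraries differ in beyond their labels was not tested.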
